A study of Mus musculus with 6 samples.

Results

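The genes described here are 10 genes of the BMP, SMAD and Id axis, namely *Bmp4*, *Bmpr1a*, *Bmpr2*, *Smad1*, *Smad5*, *Smad6*, *Smad9*, *Id1*, *Id2* and *Id3*. They were chosen by name, by pairing the Ensembl identifiers of the expression tables with mouse symbols, and are 10 of the 22380 genes listed per library. The RNA came from 6 mouse embryonic stem cell (mESC) lines, each from a different embryo on a C57BL/6 background, 3 *Ctrl* and 3 *Tet iTKO* (inducible triple knockout). The study asked how transcription changes soon after loss of the TET enzymes, which oxidise 5-methylcytosine in DNA. Cells were grown with the inhibitors CHIR99021 and PD0325901 (2i) on mouse embryonic fibroblast (MEF) feeders, received tamoxifen (4-hydroxytamoxifen, 1 µM) for 2.5 days and were cultured for 4 more days, so that RNA was taken at day 6.5. Live CD326+ GFP+ Thy1.2- cells were sorted and sequenced with the Smart-Seq2 protocol.

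All 6 lines carried the same tools. *Ctrl* lines were CreERT2; Rosa26-LSL-H2B-EGFP, and *Tet iTKO* lines carried in addition loxP-flanked alleles of *Tet1*, *Tet2* and *Tet3* (Tet1/2/3 fl/fl). CreERT2 was driven by the human ubiquitin C promoter, and the EGFP reporter marks cells in which Cre has acted. Both groups received tamoxifen, so Cre activity and the drug are shared and the floxed alleles differ. Per the methods, *Ctrl* embryos came from matings with C57BL/6J mice, and the floxed mice were made from C57BL/6NTac stem cells. Substrain and breeding may thus differ between the groups as well, and cannot be told apart from the floxed alleles. Each line is a population grown from 1 embryo.

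Bone morphogenetic proteins are secreted dimers that bind type II and type I receptor kinases. The type I receptor phosphorylates SMAD1, SMAD5 or SMAD9, which enter the nucleus with SMAD4. The Id genes are the best known direct targets in mESC, and their products hold E proteins, a class of helix-loop-helix activators, away from DNA. BMP4 together with LIF is known for keeping mESC in self-renewal through Id induction, while SMAD6 and SMAD7 are inhibitors induced by the pathway.

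Values are normalized counts, that is, reads per gene divided by a size factor of the library and rounded. They summed to between 4210784 and 4219665 per *Ctrl* library and between 3964824 and 3996522 per *Tet iTKO* library. Genes above 0 numbered 13431 to 13539 in *Ctrl* and 14024 to 14363 in *Tet iTKO*, so the groups did not overlap in either respect. A value of 3 was taken as the smallest that can be told from 0. Differences were tested with limma on log2(normalized count + 1) over the 10524 genes with a mean of at least 10, and log2 fold changes are *Tet iTKO* minus *Ctrl* on that scale, which understates changes of low genes. At an adjusted p under 0.05, 34.8% of the tested genes were called, 1731 higher (16.4%) and 1934 lower (18.4%). After correction of each library for a trend with GC content and transcript length, 1028 were higher (9.77%) and 2015 lower (19.1%). Counts per gene held all exons, so *Tet* levels do not check the deletion directly. *Tet3* was 28, 13 and 13 in *Ctrl*, against 10, 3 and 3 in *Tet iTKO* (log2 fold change -1.67, adjusted p = 0.035). That call was lost in 6 of 15 alternatives, 4 of them fits without 1 line (*Ctrl* line 1 or 2, or *Tet iTKO* line 2 or 3), with values from -2.25 to -1.25. *Tet1* was slightly higher in *Tet iTKO* (0.21, adjusted p = 0.026, and 0.14, adjusted p = 0.17, after the GC and length correction), and *Tet2* differed by 0.14 (adjusted p = 0.43).

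Of the 10 genes, 8 passed the filter on low values and were tested. *Smad6* was higher and *Id3* lower in *Tet iTKO*, 1 of 8 in each direction, beside 16.4% of all tested genes called higher and 18.4% called lower. Both also passed with a log2 fold change of at least 0.5 in size required, which 18.1% of all tested genes did. After the GC and length correction 1 of the 8 was called, beside 28.9% of all tested genes. The *Ctrl* and *Tet iTKO* lines did not overlap for 1 gene that was higher (21.2% of all tested genes) and 2 that were lower (22.9%). The other 6 tested genes did not pass the test, although *Id1* and *Bmp4* lay close to the threshold. *Bmpr2* and *Smad9* were at or below 3 normalized counts in every library. Over the 8 tested genes the median log2 fold change was -0.31, beside 0.01 over all genes tested.

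**Figure D1:**
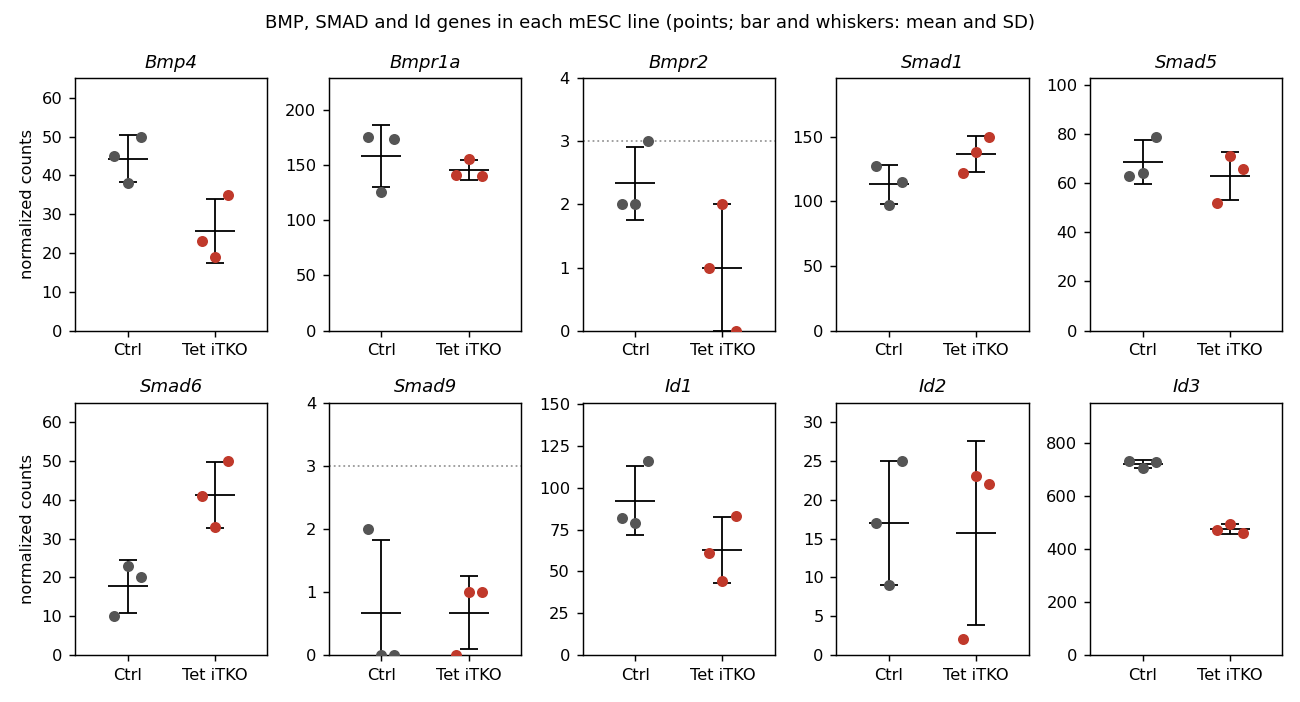
Normalized counts (vertical axes, linear and starting at 0, a separate scale per gene) of the 10 genes in the 3 *Ctrl* (grey) and 3 *Tet iTKO* (red) lines, with the mean and SD in black; the dotted line marks 3 normalized counts. The groups were apart for *Bmp4*, *Smad6* and *Id3*, and the *Id3* points were the tightest.

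*Bmp4* encodes the ligand. It was 45, 38 and 50 normalized counts in the *Ctrl* lines, against 23, 19 and 35 in the *Tet iTKO* lines. All *Tet iTKO* lines were below all *Ctrl* lines, with the highest *Tet iTKO* line close to the lowest *Ctrl* line. The log2 fold change was -0.80 (SE 0.33, 95% interval -1.47 to -0.13) with an adjusted p of 0.055, so *Bmp4* did not pass the test. Without the third *Tet iTKO* line it was -1.04 (adjusted p = 0.031), and over 15 alternatives the value ran from -1.04 to -0.62, with 3 of 15 past the threshold.

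*Bmpr1a* encodes the type I receptor ALK3. Its normalized counts were 176, 126 and 174 in *Ctrl*, against 141, 156 and 140 in *Tet iTKO*. The *Tet iTKO* lines lay inside the *Ctrl* range. The log2 fold change was -0.11 (95% interval -0.42 to 0.20, adjusted p = 0.63), an interval that leaves room for a fall or a small rise. *Bmpr2*, the type II receptor named for BMPs, was 2, 2 and 3 in *Ctrl*, against 1, 2 and 0 in *Tet iTKO*, which is too few reads for a comparison. The log2 ratio of *Bmpr1a* to *Bmpr2* was therefore left unread.

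The receptor-activated SMADs carry the signal to the nucleus. *Smad1* was 127, 97 and 115 normalized counts in *Ctrl*, against 122, 138 and 150 in *Tet iTKO*. The lowest *Tet iTKO* line lay inside the *Ctrl* range and the other two above it, with a log2 fold change of 0.28 (95% interval -0.06 to 0.61, adjusted p = 0.20). *Smad5* was 63, 64 and 79 in *Ctrl*, against 52, 71 and 66 in *Tet iTKO*. These groups overlapped, with a log2 fold change of -0.13 (95% interval -0.59 to 0.34, adjusted p = 0.71). The log2 ratio of *Smad1* to *Smad5* within a line averaged 0.71 ± 0.25 for *Ctrl* and 1.11 ± 0.14 for *Tet iTKO* (SD, n = 3 each), a difference of 0.40 (exact two-sided permutation test p = 0.2, adjusted p = 0.4 over 4 ratios). With 3 lines against 3 the smallest p of that test is 0.1. *Smad9*, which encodes the remaining receptor-activated SMAD of the BMP branch, was 2, 0 and 0 in *Ctrl*, against 0, 1 and 1 in *Tet iTKO* and was not detectable at this depth in either group.

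*Smad6* encodes an inhibitory SMAD that blocks type I BMP receptors. It was 10, 23 and 20 normalized counts in *Ctrl*, against 41, 33 and 50 in *Tet iTKO*. Every *Tet iTKO* line was above every *Ctrl* line, and the first *Ctrl* line was the lowest. The mean rose from 17.7 ± 6.81 to 41.3 ± 8.50 (SD, n = 3 each), 234% of *Ctrl*, with a log2 fold change of 1.24 (SE 0.38, 95% interval 0.47 to 2.00, adjusted p = 0.0096). The call was lost after the correction for GC content and length (0.74, adjusted p = 0.14), without the first *Ctrl* line (0.90, adjusted p = 0.059) and without the third *Tet iTKO* line (1.09, adjusted p = 0.069). At 60.8% G or C, the *Smad6* transcript was the richest of the 10 genes. Log2 fold changes over all genes rose with GC content (Spearman rho 0.26) and with transcript length (0.29), across genes that are not independent. The part of either in the *Smad6* difference was not tested.

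The promoter of *Smad6* is shown because it holds the palindrome GTCTAGAC, the pair of inverted GTCT boxes known to be bound by SMAD proteins, across its start site. Sequences are RefSeq windows on GRCm38.p6, of which 9 of the 10 genes had one and *Id1* had none. The stretch runs 5′ to 3′ from 250 bases before to 10 bases after the start, with GTCT (or AGAC on the other strand) and GGCGCC in capitals, and the one for *Bmp4* is given beside it.
Smad6, chr9:64022050-64022309, minus strand: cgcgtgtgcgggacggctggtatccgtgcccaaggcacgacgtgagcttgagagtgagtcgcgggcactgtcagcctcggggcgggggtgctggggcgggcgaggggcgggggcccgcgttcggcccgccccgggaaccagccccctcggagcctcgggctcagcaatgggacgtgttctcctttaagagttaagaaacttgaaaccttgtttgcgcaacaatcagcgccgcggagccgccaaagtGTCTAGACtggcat
Bmp4, chr14:46390660-46390919, minus strand: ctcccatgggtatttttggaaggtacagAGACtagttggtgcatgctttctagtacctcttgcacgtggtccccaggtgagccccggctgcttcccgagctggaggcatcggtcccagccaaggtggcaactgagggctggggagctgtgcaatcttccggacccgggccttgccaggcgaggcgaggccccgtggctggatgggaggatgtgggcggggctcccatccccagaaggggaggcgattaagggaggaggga
The palindrome began 4 bases before the *Smad6* start, and was held by 70 of 32851 promoter windows (0.213%). GTCT on either strand is common, in 88.0% of windows, and the 300-base window of *Bmp4* had 2. GGCGCC, a GC-rich BMP-SMAD motif, was in 11.9% of all windows. It was found in windows of *Bmpr1a*, *Bmpr2*, *Id2*, *Smad5* and *Smad9*, and not in those of *Smad6*, *Bmp4*, *Smad1* or *Id3*. The *Smad6* window had 31 CG dinucleotides and that of *Bmp4* 12, beside a median of 7 over all windows. That number was not particular to *Smad6*: windows of *Smad1* and *Smad9* also had 31, those of *Smad5* 31 to 36 and that of *Bmpr1a* 48. *Bmpr2* had 23 and *Id2* 21. These matches describe letters only, and neither binding nor methylation was measured here.

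*Id1*, *Id2* and *Id3* encode the inhibitors of E proteins. *Id3* was the most abundant of the 10 genes, at 731, 704 and 728 normalized counts in *Ctrl*, against 470, 494 and 459 in *Tet iTKO*. The lines of each group lay within a narrow band and the groups were far apart. The mean fell from 721 ± 14.8 to 474 ± 17.9 (SD, n = 3 each), 65.8% of *Ctrl*, with a log2 fold change of -0.60 (SE 0.08, 95% interval -0.76 to -0.44, adjusted p = 1.4e-07). It was past the threshold in all 16 alternatives, between -0.63 and -0.51.

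*Id1* was 82, 79 and 116 normalized counts in *Ctrl*, against 61, 44 and 83 in *Tet iTKO*. The third *Tet iTKO* line lay above the lower *Ctrl* lines, so the groups overlapped, while the other *Tet iTKO* lines were below all *Ctrl* lines. The log2 fold change was -0.58 (SE 0.23, 95% interval -1.05 to -0.11) and missed the threshold with an adjusted p of 0.051. It passed in 7 of 16 alternatives, among them rescaling by trimmed means (adjusted p = 0.041) and the replicate block (0.035), though replicate numbers showed no pairing of the lines. It did not pass without the variance trend (adjusted p = 0.17, 95% interval -1.24 to 0.08) or with no filter beyond a mean above 0 (adjusted p = 0.15). Without 1 line it ran from -0.80 (adjusted p = 0.018, without the third *Tet iTKO* line) to -0.35 (adjusted p = 0.30, without the second), and it was -0.40 (adjusted p = 0.25) without the third *Ctrl* line. After the GC and length correction it was -0.42 (adjusted p = 0.18). In the third line of each group *Id1* and *Bmp4* were both at their highest for that group. *Smad5* and *Id2* were also at their highest in the third *Ctrl* line, and *Smad1* and *Smad6* in the third *Tet iTKO* line. Whether any of these genes vary together was not tested.

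*Id2* was 17, 9 and 25 normalized counts in *Ctrl*, against 2, 23 and 22 in *Tet iTKO*. The first *Tet iTKO* line was below the rest and the other two lay inside the *Ctrl* range. The log2 fold change of -0.50 (95% interval -1.74 to 0.74, adjusted p = 0.57) turned to 0.49 without the first *Tet iTKO* line, so no direction can be given for *Id2*. The log2 ratio of *Id1* to *Id3* was -2.97 ± 0.29 in *Ctrl* and -2.95 ± 0.50 in *Tet iTKO* (SD, n = 3 each), a difference of 0.03 (exact two-sided permutation test p = 1, adjusted p = 1). The log2 ratio of *Id1* to *Id2* differed by -0.08 (exact two-sided permutation test p = 1, adjusted p = 1). Neither p shows that the genes moved by equal amounts.

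A 30-base stretch of the RefSeq *Id3* window is shown because *Id3* had the firmest difference of the set. In GENCODE M21 the window lies inside the first exon of *Id3*. The GTCT in capitals began 68 bases before the RefSeq start, next to GGCG.
Id3, chr4:136143741-136143770, plus strand: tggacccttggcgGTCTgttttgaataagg
Neither GTCTAGAC nor GGCGCC was in the *Id3* window, which had 19 CG dinucleotides. The whole window held 3 GTCT on either strand, beside a median of 2 over all windows.

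**Figure D2:**
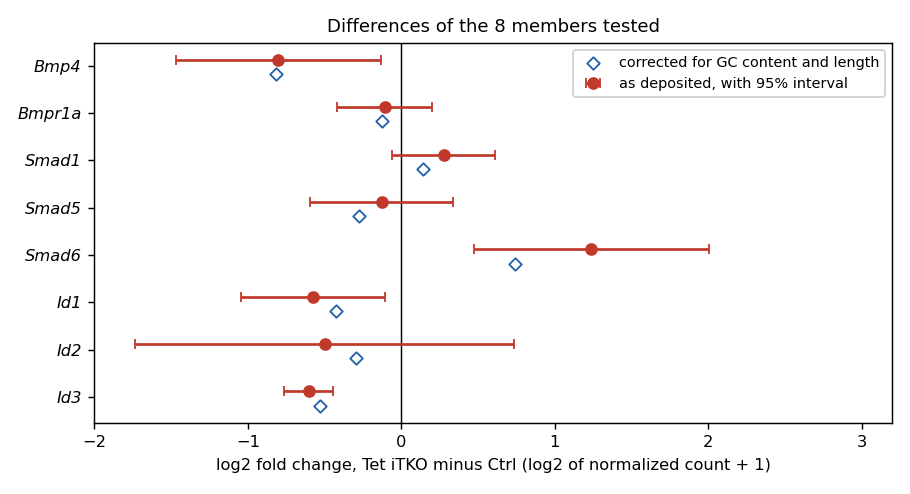
Log2 fold change (horizontal axis, *Tet iTKO* minus *Ctrl*, log2 of normalized count + 1) of the 8 tested genes, with 95% intervals from limma (filled circles) and the value after correction for GC content and length (open diamonds). *Smad6* moved from 1.24 to 0.74 with the correction and *Id3* from -0.60 to -0.53, and the intervals of *Bmpr1a*, *Smad1*, *Smad5* and *Id2* cross 0.

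Levels of different genes were compared as normalized counts per kilobase of the longest transcript. In *Ctrl*, *Id3* stood at 564 ± 11.6 per kilobase, above *Id1* at 79.6 ± 17.7 (SD, n = 3 each). Next came *Smad1* at 29.9 ± 4.00, *Bmpr1a* at 26.6 ± 4.75 and *Bmp4* at 21.5 ± 2.92 per kilobase, whose neighbours overlapped between lines. *Smad5* at 10.4 ± 1.36, *Id2* at 8.63 ± 4.06 and *Smad6* at 5.95 ± 2.29 per kilobase followed, again with neighbours overlapping. In *Tet iTKO*, *Id3* (371 ± 14.0 per kilobase) and *Id1* (54.0 ± 16.9) remained at the top, though *Id1* then overlapped *Smad1* (36.2 ± 3.72). *Smad6*, at 13.9 ± 2.86 per kilobase, stood beside *Bmp4* at 12.4 ± 4.03 in *Tet iTKO*.

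**Figure D3:**
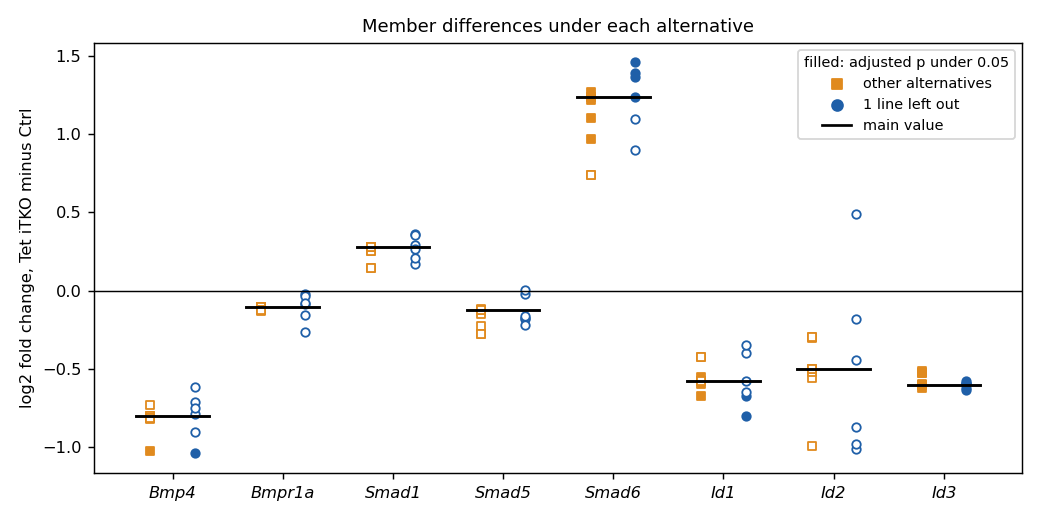
Log2 fold change (vertical axis, *Tet iTKO* minus *Ctrl*) of each tested gene under every alternative, with squares for other settings, circles for fits without 1 line, filled where the adjusted p was under 0.05, and black lines for the value reported. *Id3* stayed filled throughout, *Smad6* lost the call in 4 of 15 alternatives, and *Id2* was the gene with the widest range, from -1.01 to 0.49.

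The rest of the pathway was taken from 7 lists of 78 genes, of which 77 were matched and 37 were tested. The other 40 were too low, among them *Nog*, *Cer1*, *Sost* and *Bmper*, which encode secreted antagonists and were 0 in every library. Of the 37, 13 were higher and 3 lower in *Tet iTKO*, with a median log2 fold change of 0.21, beside 16.4% higher, 18.4% lower and a median of 0.01 over all genes tested. After the correction for GC content and length, 5 of the 13 stayed higher, 7 were not called and 1 was lower, all 3 lower genes stayed lower, and 3 further genes were lower, with a median of 0.07, beside 9.77% higher, 19.1% lower and a median of -0.06 over all genes. The number of higher genes in these lists thus moved from 13 to 5 with that setting.

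Of 16 other ligands, 2 were tested, 1 lower and 1 higher (list median 0.26). *Gdf3*, a ligand of the TGF-β family expressed in pluripotent cells, was 1567, 1588 and 1710 normalized counts in *Ctrl*, against 1145, 1128 and 1082 in *Tet iTKO*. The groups were far apart (log2 fold change -0.54, SE 0.06, adjusted p = 7.3e-09). *Bmp7* was 26, 37 and 26 in *Ctrl*, against 49, 78 and 62 in *Tet iTKO*. It rose in *Tet iTKO* (log2 fold change 1.06, SE 0.29, adjusted p = 0.0042, and 0.75, adjusted p = 0.047, after correction), and the call was lost without the second *Tet iTKO* line (adjusted p = 0.055).

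Of 10 other receptors and co-receptors, 9 were matched and 5 tested, with 3 higher and 0 lower (list median 0.53). *Acvr2b*, an activin and BMP type II receptor, was 211, 197 and 193 normalized counts in *Ctrl*, against 246, 307 and 318 in *Tet iTKO* (log2 fold change 0.53, adjusted p = 7.6e-04, and 0.32, adjusted p = 0.046, after correction). Per kilobase its *Ctrl* mean was 63.1 normalized counts, beside 0.18 for *Bmpr2*. The co-receptor genes *Eng* (log2 fold change 0.53, adjusted p = 1.0e-03) and *Rgmb* (1.14, adjusted p = 0.029) were also higher. Both calls were lost after correction (0.13, adjusted p = 0.46, and 0.96, adjusted p = 0.079). That of *Rgmb* was lost in 9 of 15 alternatives, among them fits without the third *Ctrl* line (0.60, adjusted p = 0.22) or without any 1 of the *Tet iTKO* lines.

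Of 19 secreted antagonists and modulators, 6 were tested, with 1 higher and 0 lower (list median 0.56). *Fstl1*, a follistatin-like glycoprotein gene, was 338, 399 and 414 normalized counts in *Ctrl*, against 577, 503 and 569 in *Tet iTKO*. It rose by 0.52 on the log2 scale (SE 0.09, adjusted p = 3.1e-05) and by 0.49 after correction (adjusted p = 1.0e-04).

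All 4 other SMAD genes were tested, with 1 higher and 0 lower (list median -0.03). *Smad3*, of the activin and TGF-β branch, was 23, 22 and 9 normalized counts in *Ctrl*, against 50, 45 and 45 in *Tet iTKO*. It rose by 1.43 on the log2 scale (SE 0.37, adjusted p = 0.0024, and 1.13, adjusted p = 0.019, after correction). *Smad7*, the other inhibitory SMAD, was 552, 545 and 519 in *Ctrl*, against 559, 486 and 554 in *Tet iTKO*. These overlapped (log2 fold change -0.02, 95% interval -0.19 to 0.15, adjusted p = 0.90), and after correction *Smad7* was lower (-0.44, adjusted p = 1.4e-04).

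Of 14 intracellular regulators, 13 were tested, with 5 higher and 1 lower (list median 0.21). *Tob2*, a relative of the SMAD repressor gene *Tob1*, rose from 71, 85 and 85 normalized counts to 127, 131 and 133 (log2 fold change 0.70, adjusted p = 0.0022, and 0.46, adjusted p = 0.0498, after correction). *Smurf1*, which encodes a ubiquitin ligase for SMAD1 and SMAD5, was 81, 111 and 124 in *Ctrl*, against 162, 160 and 141 in *Tet iTKO* (0.57, adjusted p = 0.0084). The other higher genes were *Ski* (0.47, adjusted p = 0.036), a SMAD co-repressor gene, and the SMAD phosphatase genes *Ctdsp1* (0.48, adjusted p = 0.0082) and *Ppm1a* (0.21, adjusted p = 0.030). The calls of *Smurf1*, *Ski*, *Ctdsp1* and *Ppm1a* were lost after correction, and in 4, 8, 5 and 9 of 16 alternatives in all. Without 1 line, *Smurf1* lost its call for the first *Ctrl* line, *Ctdsp1* for *Ctrl* line 1 or *Tet iTKO* line 3, *Ski* for *Ctrl* line 1 or 3 or *Tet iTKO* line 1 or 2, and *Ppm1a* for line 1 or 2 of either group. *Stub1*, a ubiquitin ligase gene, fell by 0.30 on the log2 scale (adjusted p = 0.023). Its call was lost in 7 of 16 alternatives, among them fits without *Ctrl* line 2 (adjusted p = 0.10), *Ctrl* line 3 (0.12), *Tet iTKO* line 1 (0.067) or *Tet iTKO* line 3 (0.066). *Fkbp1a*, the most abundant gene of the list, which encodes a protein that holds type I receptors inactive, differed by 0.11 (95% interval -0.0008 to 0.21, adjusted p = 0.12).

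Of 12 other genes known as BMP targets, 4 were tested, with 1 higher and 1 lower (list median -0.11, and -0.46 after correction). *Tbx3*, a T-box factor gene of naive mESC, was 639, 577 and 700 normalized counts in *Ctrl*, against 591, 523 and 504 in *Tet iTKO* (log2 fold change -0.24, adjusted p = 0.025, and -0.58 after correction). Its call was lost in 7 of 16 alternatives, among them fits without *Ctrl* line 1 or 3 or *Tet iTKO* line 2 or 3 (adjusted p up to 0.16). *Kdm6b*, an H3K27 demethylase gene, was higher (0.68, adjusted p = 9.7e-08), but its direction turned after correction (-0.08, adjusted p = 0.52). *Dusp9*, an ERK phosphatase gene and the most abundant of the list, was 954, 1020 and 1052 in *Ctrl*, against 889, 1058 and 1128 in *Tet iTKO*. It differed by 0.02 (95% interval -0.13 to 0.17, adjusted p = 0.89), and by -0.35 (adjusted p = 1.9e-04) after correction. *Junb*, the remaining tested gene, was 87, 112 and 93 in *Ctrl*, against 79, 72 and 69 in *Tet iTKO*. It did not pass (-0.40, adjusted p = 0.12), and was lower after correction (-0.69, adjusted p = 0.0077). After correction 3 of the 4 were thus lower and 0 higher, beside 19.1% and 9.77% of all tested genes.

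All 3 genes for E proteins, the partners that Id proteins bind, were tested, with 1 higher and 0 lower (list median 0.02). *Tcf3* was 1315, 1250 and 1503 normalized counts in *Ctrl*, against 1607, 1662 and 1629 in *Tet iTKO* (log2 fold change 0.27, adjusted p = 7.9e-04). Its direction turned after correction (-0.23, adjusted p = 0.0043), so no direction is given for it.

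**Figure D4:**
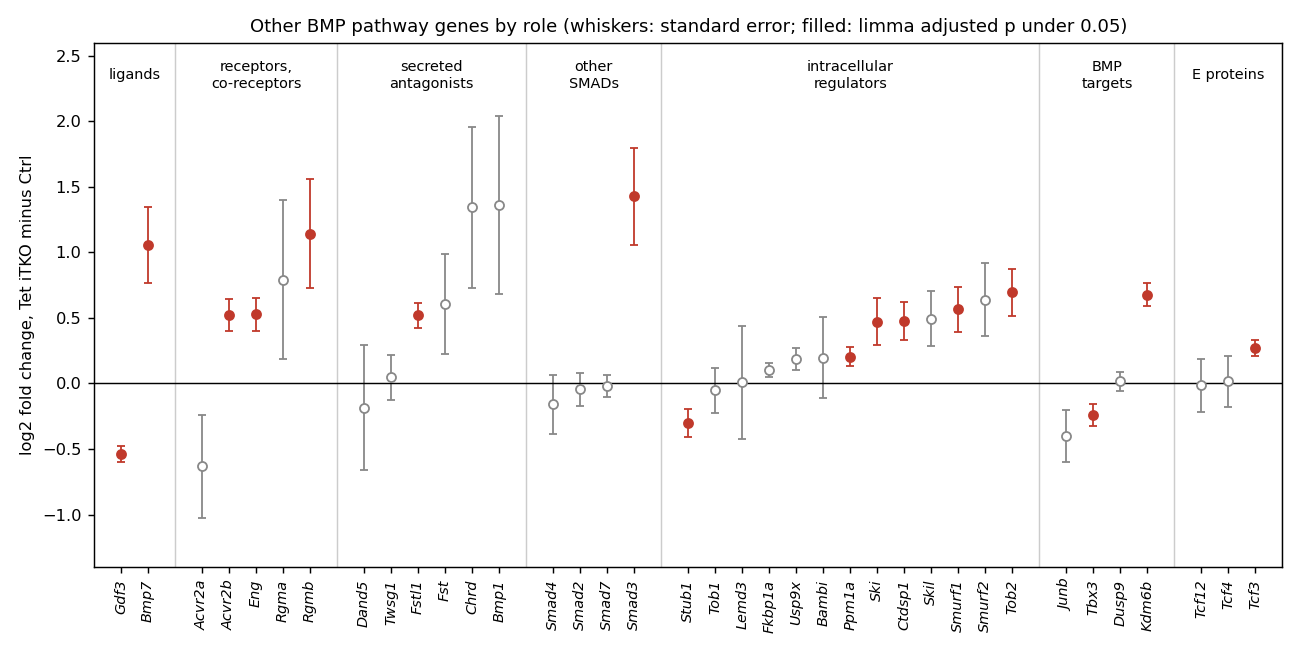
Log2 fold change (vertical axis, *Tet iTKO* minus *Ctrl*, log2 of normalized count + 1) with its standard error for the 37 tested genes of the 7 other lists, ordered by role, with filled points for a limma adjusted p under 0.05. *Gdf3*, *Stub1* and *Tbx3* are the filled points below 0, and *Smad3* is the highest filled point, at 1.43.

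Markers of the sorted cells and of other cells moved as well. The summed level of 10 mESC markers was 12355 to 12785 normalized counts in *Ctrl* and 11339 to 11711 in *Tet iTKO*, with *Epcam*, *Klf4* and *Esrrb* higher and *Pou5f1*, *Nanog*, *Zfp42* and *Dppa4* lower. After correction 1 was higher, *Epcam*, and 3 lower, *Pou5f1*, *Dppa4* and *Tfcp2l1* (-0.36, adjusted p = 0.0016). *Tfcp2l1* had not passed before correction (-0.19, adjusted p = 0.066). The calls of *Klf4* (0.12, adjusted p = 0.34), *Nanog* (-0.16, adjusted p = 0.057) and *Zfp42* (-0.16, adjusted p = 0.24) were lost, and the *Esrrb* difference turned from 0.29 to -0.03. The sum of 14 feeder fibroblast markers was 342 to 364 in *Ctrl* and 554 to 639 in *Tet iTKO*, with *Col1a1* (log2 fold change 0.89), *Col1a2* (1.17) and *Col3a1* (1.36) higher. Most of the rise of the sum lay in these collagen genes. The other 3 tested markers did not pass, namely *Col5a1* (0.58, adjusted p = 0.37), *Acta2* (-0.11, adjusted p = 0.79) and *Thy1* (-0.19, adjusted p = 0.69). After correction *Col1a1* lost its call (0.24, adjusted p = 0.16), and the median of the 6 tested feeder markers moved from 0.74 to 0.10. *Thy1*, the gene of the feeder antigen used in the sort, was 30, 46 and 41 in *Ctrl*, against 47, 35 and 23 in *Tet iTKO*, and the feeder gene *Fap*, the trophoblast gene *Plac1* and the mesoderm gene *Mesp1* were 0 throughout. Primitive endoderm markers summed to 24 to 34 and 30 to 47 and mesoderm markers to 2 to 15 and 35 to 38, in *Ctrl* and *Tet iTKO*. Of the 8 primitive endoderm markers 2 were tested. *Gata4*, with a *Ctrl* mean of 6.33 normalized counts, was higher (log2 fold change 1.64, adjusted p = 0.030), a call lost in 8 of 15 alternatives and after correction (1.25, adjusted p = 0.11). *Sox7* had a log2 fold change of -1.19 (adjusted p = 0.15). Of the 7 mesoderm markers only *T* was tested, and it rose from 0, 12 and 1 to 24, 26 and 24 normalized counts. The trophoblast gene *Gcm1* rose from 0, 0 and 3 to 28, 26 and 17. The 8 trophoblast markers summed to 714 to 791 in *Ctrl* and 639 to 687 in *Tet iTKO*. Most of that sum was *Tfap2c*, which was 745, 699 and 672 in *Ctrl*, against 580, 599 and 579 in *Tet iTKO* (-0.27). The sum therefore does not show the direction of the other trophoblast markers. Of the 8, 4 were tested, with *Gcm1* higher and *Tfap2c* lower. *Eomes* (0.84, adjusted p = 0.091) and *Ascl2* (-0.58, adjusted p = 0.40) did not pass, and the other 4 were below the filter. The part of these cells in the differences of *Smad6*, *Id3* or the lists was not tested, and in bulk RNA fewer cells of a type and less RNA per cell cannot be told apart.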

How the data were processed

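RNA was measured in 6 mESC lines, 3 *Ctrl* and 3 *Tet iTKO*, with groups and replicate numbers taken from the sample titles. Per the methods of the study, the authors aligned paired reads of 50 bases with STAR, kept unique alignments, counted with htseq-count (-s yes, -a 10) and normalized with DESeq2. The submitters' processing notes name HTSeq 0.7.1, DESeq2 1.26.0, R 3.5.2 and the build mm9. The deposited values are of the unit score, since the authors rounded normalized counts to whole numbers, and count models (DESeq2, edgeR) were therefore not run here. The annotation used for counting is not given in the sources used here. Smart-Seq2 libraries keep no strand, so reads of a gene and of an antisense or overlapping partner cannot be told apart. The setting -s yes leaves out reads on the other strand of a gene, and how many were lost for low genes such as *Bmpr2* and *Smad9* was not tested. In GENCODE M21 *Bmp4* and *Bmpr1a* have antisense partners, and *Bmpr2* and *Smad5* contain other transcripts. No molecular identifiers were used, so PCR copies are not separate molecules and the limit of 3 covers counting error only.

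GENCODE M21 on GRCm38 named 20775 of the 22380 identifiers and supplied their length and GC content, and gene coordinates were not transferred between builds. limma 3.58.1 in R 4.3.3 (lmFit, eBayes with trend) was fitted on log2(value + 1). Genes needed a mean of at least 10 over the 6 libraries, and p-values were adjusted over all 10524 by Benjamini-Hochberg, with a threshold of 0.05. Library totals are of normalized counts, so the sequencing depth of each library is not shown. Promoter windows were RefSeq's, searched on both strands. The GC and length correction subtracted a loess trend (span 0.3) per library. The 4 ratios were tested by exact permutation (two-sided). Scripts were tested on simulated data. Python 3.11.15, pandas 2.3.3, NumPy 2.4.6 and matplotlib 3.10.9 were used for tables and plots. Lines came from separate embryos. The variance of each gene was drawn towards that of genes of similar level (eBayes with trend). The limma p-values thus do not rest on the gene's own spread between lines alone. Without the trend the limma adjusted p was 0.010 for *Id3* and 0.17 for *Id1*.

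The genes, the lists and the tests were chosen with earlier results of these data known. The genes named are the 10 members, the *Tet* genes, every gene of the other pathway lists with an adjusted p under 0.05 and the most abundant gene of each list, and of the marker lists the sums, the genes at 0 and those with an adjusted p under 0.05. Antagonist genes at 0, *Sox7*, *Col5a1*, *Acta2*, *Eomes*, *Ascl2*, *Tfcp2l1*, *Junb* and, as the gene of the sort antigen, *Thy1* lie outside this rule. They were named after their values were seen. Alternatives were other pseudocounts, filters, scalings and variance models, a replicate block, the GC and length correction, and leaving out each line.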

Additional observations from a re-analysis of the deposited data

How the results depend on the processing

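Of 44 single-gene differences under up to 16 alternatives, 567 of 693 values kept their direction and side of the threshold, 95 lost the call, 13 gained it and 18 changed sign. The cause was not tested where none is given. Genes higher in *Tet iTKO* numbered 1731, and 1075 without the variance trend, 1028 with the GC and length correction and 1037 with that correction and the replicate block. Genes lower numbered 1934, and 1217 without the trend. Members higher fell from 1 to 0 with a mean of at least 50, because *Smad6* is below that filter, and to 0 with the GC and length correction, alone or with the block. Without each line members higher ran from 0 to 1, with 0 without the first *Ctrl* or the third *Tet iTKO* line. Members lower rose from 1 to 2 with a pseudocount of 4, with a mean of at least 50 and with the block, and to 3 with trimmed-mean rescaling and quantile normalization. Without each line they ran from 1 to 3, with 2 without the second *Ctrl* and 3 without the third *Tet iTKO* line. The added members were *Id1* and, at 3, *Bmp4*.

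The log2 ratio of *Id1* to *Id3* turned to -0.16 and that of *Id1* to *Id2* to 0.32 with quantile normalization, and without each line they ran from -0.22 to 0.28 and from -1.07 to 0.66. With the GC and length correction, alone or with the block, *Kdm6b* turned to -0.084, *Dusp9* to -0.35, *Tcf3* to -0.23 and *Esrrb* to -0.033. *Dusp9* was -0.0048 with trimmed-mean rescaling and *Smad7* 0.058 with quantile normalization. Without each line *Smad5* ran from -0.22 to 0.0032, *Id2* from -1.01 to 0.49, *Tet2* from -0.019 to 0.26, *Smad7* from -0.053 to 0.047 and *Dusp9* from -0.055 to 0.12.

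The replicate numbers showed no pairing of the lines in these values. Same-numbered lines had correlations of 7e-04, -0.0054 and -0.0031 of their deviations from the group means, and no line correlated best with its own number. The paper describes the data as coming from 3 independent experiments, and does not state whether same-numbered lines shared one. The replicate block gave 1762 genes higher and 1980 lower. *Bmpr2* and *Smad9* were at or below the limit of 3 normalized counts in every library.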

Other observations

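Several genes of the pathway lists fell below the filter of the test yet had *Ctrl* and *Tet iTKO* lines that did not overlap. They were picked after their values were seen and were not tested. *Hand1*, a mesoderm and trophoblast factor gene known as a BMP target, was 0 in all 3 *Ctrl* lines and 6, 5 and 6 normalized counts in the *Tet iTKO* lines. The ligand gene *Bmp6* was 0, 2 and 0 in *Ctrl* and 5, 6 and 6 in *Tet iTKO*. The homeobox gene *Msx2*, another known target, was 3, 3 and 1 in *Ctrl* and 12, 19 and 4 in *Tet iTKO*. The secreted antagonist gene *Nbl1* was 0, 4 and 2 in *Ctrl* and 9, 19 and 8 in *Tet iTKO*. Most of these values are close to the limit of 3 normalized counts. *Tll1* of the antagonist and modulator list also did not overlap, at 1 in every *Ctrl* line and 2 in every *Tet iTKO* line, under that limit. Among the tested genes, which all lie above the filter, 44.1% had groups that did not overlap. The share among genes below the filter was not counted, so these genes have no background of their own level. Every *Tet iTKO* line also had more genes above 0 than any *Ctrl* line. Over all genes with a mean above 0 the median log2 fold change was 0.08, beside 0.01 over the tested genes. The part of that shift in these genes was not tested.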
